A study of Mus musculus with 12 samples.

Results

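The genes described are 10 regulators of entry into the cell cycle from G1: the D cyclin genes Ccnd1, Ccnd2 and Ccnd3, the E cyclin genes Ccne1 and Ccne2, the kinase genes Cdk4 and Cdk6, and the inhibitor genes Cdkn1a, Cdkn1b and Cdkn2c. They were taken by gene name from a table of 55335 genes, and all 10 passed the filter on low counts, as did 15702 genes in all. Genes that act in S phase and mitosis were not included among them.

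The cells were splenic CD8 T cells of C57BL/6 mice with the OT-I transgene, a T cell receptor that recognises an ovalbumin peptide. All had received a retrovirus, either one that expresses Batf3 (a transcription factor of the AP-1 family) or the empty control vector, and transduced cells were sorted before culture. For 6 h they were then either stimulated, with plate-bound antibody to CD3e plus antibody to CD28 (each 1 µg/ml), or kept non-stimulated in medium with IL-15 (100 ng/ml), a cytokine that sustains CD8 T cells. The 4 groups were Batf3 stimulated, control stimulated, Batf3 non-stimulated and control non-stimulated cells, with 3 libraries each. The submitters call these replicates technical, so every SD, SE and p-value below measures the spread between libraries and not that between mice or transductions. IL-15 is named for the non-stimulated cultures alone, so an effect of the antibodies and one of a lack of IL-15 cannot be told apart.

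A cell commits to division when the retinoblastoma protein RB is phosphorylated and lets go of the E2F factors, which then switch on the genes of DNA replication. D cyclins carry outside signals to this switch by activating CDK4 and CDK6, and E cyclins complete it by activating CDK2. INK4 proteins such as p18 (Cdkn2c) bind CDK4 and CDK6, whereas the CIP/KIP proteins p21 (Cdkn1a) and p27 (Cdkn1b) chiefly block cyclin E with CDK2. In T cells, signals through the antigen receptor and CD28 are known to raise D cyclins and to lower p27.

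Total counts lay between 14211564 and 14468231 per library, and levels are given in CPM, which scales counts to a common library size, here with TMM factors. Batf3 RNA averaged 427 ± 11.9 CPM in Batf3 stimulated and 18.3 ± 0.734 CPM in control stimulated cells, and 469.8 ± 3.67 CPM in Batf3 non-stimulated and 6.76 ± 0.832 CPM in control non-stimulated cells (SD, n = 3 each), as the labels have it. The CD8 marker Cd8a averaged between 554 and 747 CPM over the groups and Cd4 between 0.149 and 0.321 CPM. Ms4a1 (B cells), Lyz2 (myeloid cells), Ncr1 (NK cells) and Pf4 (platelets) had no count in any library. Other markers of such cells were detected. Cd79b (B cells) averaged between 0.469 and 4.47 CPM over the groups and Klrb1c (NK cells) between 0.735 and 3.03 CPM. Hba-a1 (erythroid cells) averaged between 0.0507 and 1.49 CPM. The 5 dendritic cell genes summed to between 15.9 and 23.0 CPM in a library, most of it Xcr1 and Zbtb46. The share of other cells was not tested. Libraries of a group differed by more than counting noise, with a mean chi-square per gene between 1.55 and 3.69 where counting noise alone gives 1. The 2 highest of these values involve replicate 3 of the Batf3 stimulated cells.

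**Figure D1:**
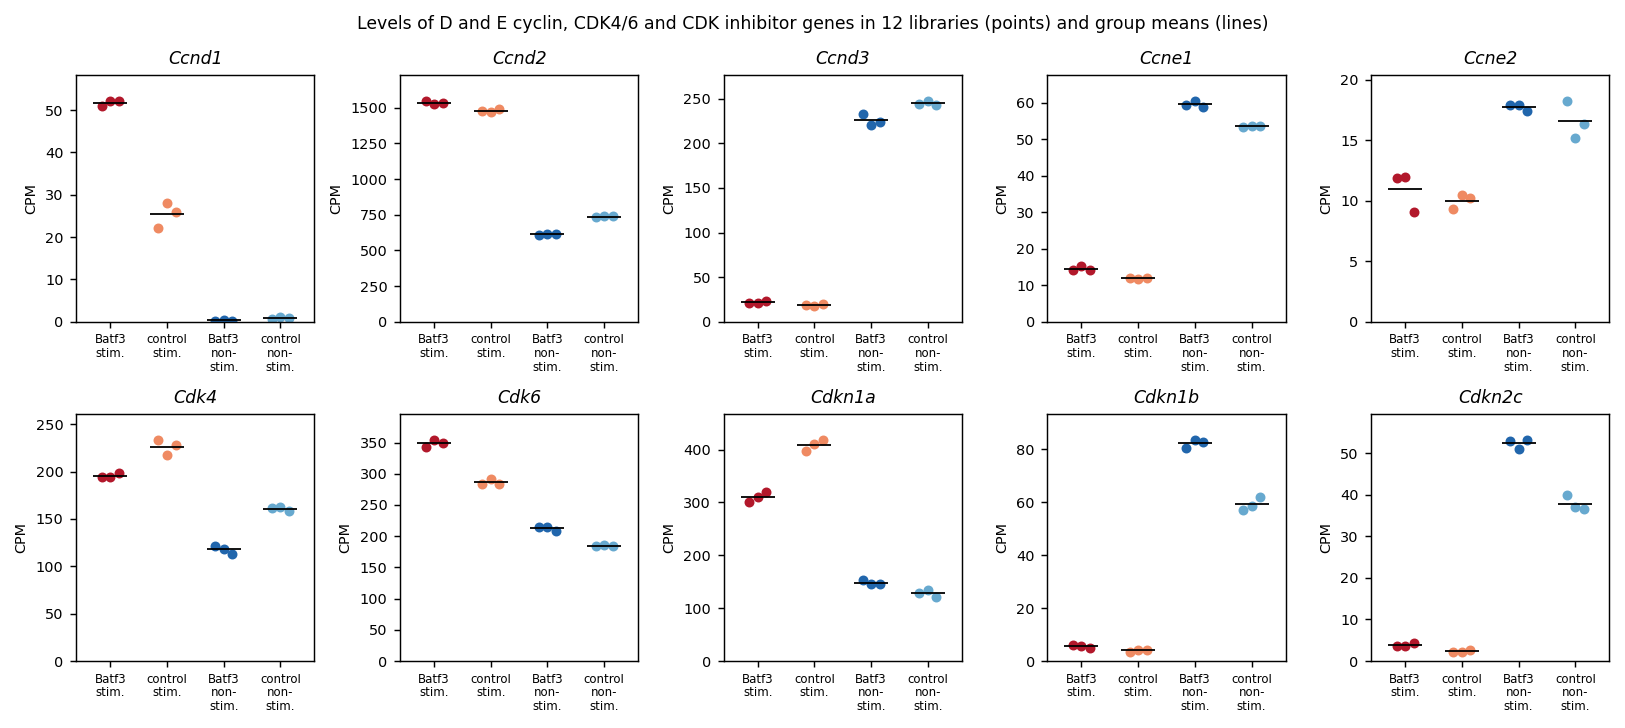
CPM of each gene in the 12 libraries (points, own axis for each gene, starting at 0) with the mean of 3 libraries per group (lines). Ccnd1 was near 0 without stimulation and highest with Batf3 and stimulation, while Ccnd3, Ccne1, Cdkn1b and Cdkn2c were higher in both non-stimulated groups.

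Stimulation moved all 10 genes, and it split the D cyclins and the inhibitors. With either vector, Ccnd1, Ccnd2, Cdk4, Cdk6 and Cdkn1a rose, and Ccnd3, Ccne1, Ccne2, Cdkn1b and Cdkn2c fell. Of all genes tested, 82.7% changed with the Batf3 vector (41.2% rose and 41.4% fell) and 80.3% with the control vector (39.6% and 40.7%), so a call alone says little here. Calls are those of edgeR's quasi-likelihood test, with p-values adjusted after Benjamini and Hochberg. At least 2-fold changes were fewer: 3 of the 10 genes rose and 4 fell that far with each vector, beside 18.8% and 24.4% of all genes with the Batf3 vector and 17% and 24.1% with the control vector. The count of rises rests on genes near 2-fold. With library sizes alone it was 2 with each vector, as Cdkn1a came to 0.85 with the Batf3 vector and Ccnd2 to 0.82 with the control vector on the log2 scale. With the control vector it was also 2 without control non-stimulated replicate 1 or 3 or without any one Batf3 non-stimulated library, where Ccnd2 came to no less than 0.99. The Batf3 vector moved Ccnd1, Ccnd3 and Cdkn1a in opposite directions in the 2 cultures, with small changes of Ccnd3 that not every setting called. It moved Cdk6, Ccne1, Cdkn1b and Cdkn2c up and Cdk4 down in both. In bulk RNA, a smaller number of cells that express a gene and less RNA per cell cannot be told apart.

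**Figure D2:**
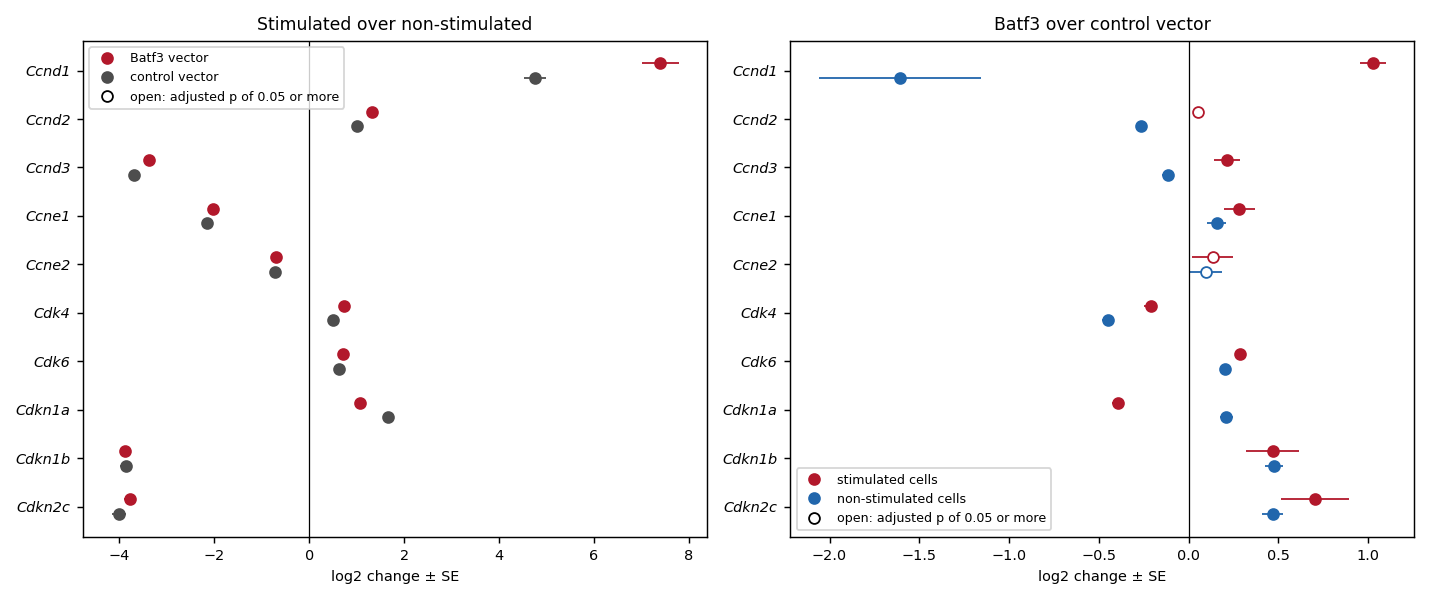
Log2 changes ± SE of the 10 genes, on the left for stimulated over non-stimulated cells with each vector and on the right for Batf3 over control vector in each culture. On the left both vectors gave the same direction for every gene, and on the right Ccnd1, Ccnd2, Ccnd3 and Cdkn1a lie on opposite sides of 0 in the 2 cultures.

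Ccnd1 encodes cyclin D1, the D cyclin of many adherent tissues, which lymphocytes usually express little of. Its level was 51.0, 52.2 and 52.1 CPM in the Batf3 stimulated libraries and 22.2, 28.2 and 25.9 CPM in the control stimulated ones. Without stimulation it was 0.255, 0.448 and 0.192 CPM with Batf3, from counts of 4, 7 and 3 reads, and 0.730, 1.13 and 0.926 CPM with the control vector, from 11, 17 and 14 reads. No pair of these groups overlapped, and the order of the vectors turned round between the cultures. In stimulated cells Batf3 raised Ccnd1 by 1.03 ± 0.07 on the log2 scale (SE, edgeR's quasi-likelihood test, adjusted p = 8.19e-19), whereas in non-stimulated cells the change was -1.61 ± 0.45 (adjusted p = 0.0011). Stimulation raised it by 7.40 ± 0.39 with the Batf3 vector and by 4.76 ± 0.23 with the control vector. The test of that difference, the vector by stimulation interaction, gave 2.64 ± 0.46 (adjusted p = 8.23e-07), place 31 from the top of 15702 genes.

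Ccnd1 (chromosome 7, 144929931 to 144939925, minus strand, GRCm38 as for all genes here) shares 23.4% of its exon bases with LTO1 on the other strand. The library kit marked strand, but the strand option of the counting step was not stated. LTO1 averaged 13.1 ± 2.69 CPM in Batf3 stimulated and 10.9 ± 1.02 CPM in control stimulated cells (SD, n = 3). Without stimulation it averaged 16.9 ± 0.788 CPM with Batf3 and 14.0 ± 1.30 CPM with the control vector. It fell with stimulation where Ccnd1 rose. Batf3 changed LTO1 by 0.27 ± 0.10 in non-stimulated cells (edgeR's quasi-likelihood test, adjusted p = 0.0236). In stimulated cells the change was 0.27 ± 0.11 (adjusted p = 0.0659). The part of LTO1 in the Ccnd1 values was not tested. Among markers of cells in which cyclin D1 is common, the 5 stromal and endothelial genes summed to 6.96 to 8.47 CPM in Batf3 stimulated, 6.17 to 7.61 CPM in control stimulated, 53.3 to 54.2 CPM in Batf3 non-stimulated and 54.2 to 58.8 CPM in control non-stimulated libraries. Most of this was Pecam1, which T cells also express. Col1a1, a collagen gene, stood at 1.09 CPM in Batf3 stimulated and 0.482 CPM in control stimulated cells, and at 0.490 CPM in Batf3 non-stimulated and 0.132 CPM in control non-stimulated cells. The collagen gene Col1a2 had another order. It stood at 0.370 CPM in Batf3 stimulated, 0.0507 CPM in control stimulated, 2.065 CPM in Batf3 non-stimulated and 0.508 CPM in control non-stimulated cells. Pdgfrb and Cdh5 were also highest in Batf3 non-stimulated cells, at 0.128 and 0.2345 CPM. The 5 myeloid genes, Lyz2 at 0, summed to 15.4 to 17.5 CPM in Batf3 stimulated and 10.3 to 12.6 CPM in control stimulated libraries. Without stimulation they summed to 14.0 to 14.7 CPM with Batf3 and 8.28 to 9.93 CPM with the control vector. Most of this was Itgam and Cd68, while Csf1r and Adgre1 averaged no more than 0.4445 and 1.135 CPM in a group. The CD4 T cell list of Cd4, Zbtb7b and Cd40lg summed to 64.8 to 67.6 CPM in Batf3 stimulated, 24.5 to 26.9 CPM in control stimulated, 23.0 to 25.0 CPM in Batf3 non-stimulated and 13.1 to 15.8 CPM in control non-stimulated libraries, and with stimulation most of it was Cd40lg, which activated T cells express. The part of these cells in the Ccnd1 result was not tested.

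Ccnd2 (chromosome 6, 127125162 to 127152193, minus strand) encodes cyclin D2, a D cyclin that antigen and cytokine signals induce in lymphocytes. It had the highest CPM of the 10 genes, with 1547, 1529 and 1531 CPM in Batf3 stimulated libraries, 1478, 1471 and 1488 CPM in control stimulated libraries, 609, 618 and 615 CPM in Batf3 non-stimulated libraries and 731, 741 and 739 CPM in control non-stimulated libraries. Stimulation raised it 2.50-fold with the Batf3 vector and 2.01-fold with the control vector, log2 changes of 1.32 ± 0.02 and 1.01 ± 0.02. Without stimulation Batf3 lowered it by a small and well separated amount (-0.26 ± 0.02, adjusted p = 4.29e-15). With stimulation the Batf3 libraries lay just above the control ones, and the change of 0.05 ± 0.02 was not called (adjusted p = 0.0576), although it was with library sizes alone (0.10, adjusted p = 0.000291) and when the stimulated groups were fitted by themselves (adjusted p = 0.0439). The interaction was 0.32 ± 0.03 (adjusted p = 2.94e-12).

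Ccnd3 (chromosome 17, 47505051 to 47599691, plus strand) encodes cyclin D3, the D cyclin that developing mouse thymocytes depend on, and it ran against the other D cyclins. It stood at 20.8, 21.3 and 23.2 CPM in Batf3 stimulated libraries and at 18.9, 18.0 and 19.6 CPM in control stimulated libraries. In non-stimulated cells it stood at 233, 220.1 and 224 CPM with Batf3 and at 244, 247 and 243 CPM with the control vector. Stimulation thus lowered Ccnd3 10.4-fold with the Batf3 vector and 13.0-fold with the control vector (log2 changes of -3.37 ± 0.05 and -3.70 ± 0.06). Batf3 cells held slightly more of it when stimulated (0.21 ± 0.07, adjusted p = 0.0141) and slightly less when not (-0.12 ± 0.03, adjusted p = 0.00341), with an interaction of 0.33 ± 0.08 (adjusted p = 0.000679). The gain in stimulated cells was not called by DESeq2 (adjusted p = 0.0593), without a filter on low counts (0.072), without control stimulated replicate 2 (0.104) or without Batf3 stimulated replicate 3 (0.138), and the small fall in non-stimulated cells was not called with library sizes alone (-0.04, adjusted p = 0.331). Bysl, which overlaps 4.11% of the Ccnd3 exon bases on the other strand, rose with stimulation by 1.81 ± 0.05 with the Batf3 vector and 1.46 ± 0.05 with the control vector, opposite to Ccnd3. Batf3 changed Bysl by 0.01 ± 0.04 in stimulated cells (adjusted p = 0.938) and by -0.35 ± 0.05 in non-stimulated cells (adjusted p = 1.24e-07), with an interaction of 0.35 ± 0.07 (adjusted p = 3.16e-05); its part in the Ccnd3 values was not tested.

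To compare genes, levels were divided by the length of their merged exons. Per kilobase, Ccnd2 made up 92.4 ± 0.170% of D cyclin RNA in Batf3 stimulated, 95.4 ± 0.355% in control stimulated, 71.7 ± 0.732% in Batf3 non-stimulated and 73.6 ± 0.203% in control non-stimulated cells (SD, n = 3). Ccnd3 took most of the rest without stimulation, 28.2 ± 0.750% with Batf3 and 26.2 ± 0.199% with the control vector, and held 1.403 ± 0.0852% and 1.30 ± 0.0495% with stimulation. Ccnd1 reached 6.22 ± 0.105% in Batf3 stimulated and 3.28 ± 0.383% in control stimulated cells. The shares depend on which transcripts are counted, since the comprehensive GENCODE annotation gives Ccnd3 8775 merged exon bases and the basic one 2447. With the basic annotation Ccnd3 held 50.2% and Ccnd2 49.8% in Batf3 non-stimulated cells, and 47.6% and 52.3% in control non-stimulated cells. Ccnd2 still held 91.0% in Batf3 stimulated and 93.8% in control stimulated cells with it.

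**Figure D3:**
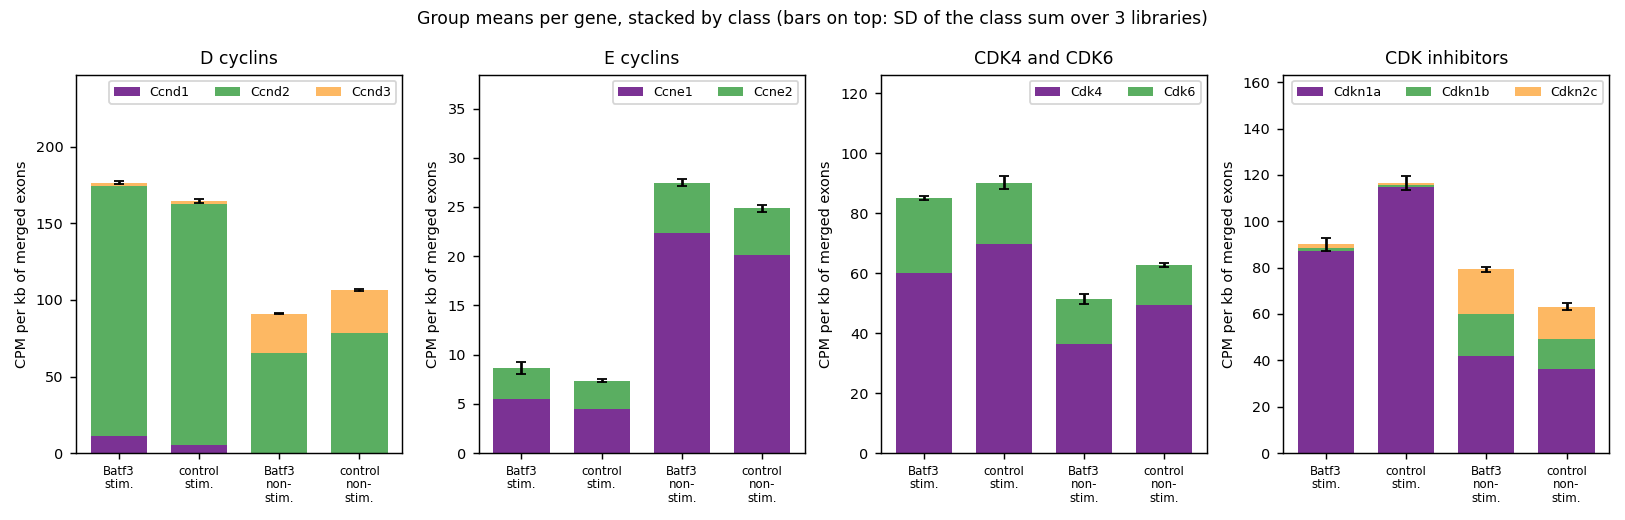
Mean CPM per kilobase of merged exons in each group, stacked by gene within the 4 classes, each with its own axis from 0; bars on top are the SD of the class sum over 3 libraries. D cyclins and CDK4/6 were higher and E cyclins lower in both stimulated groups, and Cdkn1a made up nearly all inhibitor RNA after stimulation.

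Ccne1 (chromosome 7, 38097984 to 38107534, minus strand) and Ccne2 (chromosome 4, 11191351 to 11204779, plus strand) encode the E cyclins, which activate CDK2 and are themselves E2F targets. Ccne1 stood at 14.2, 15.2 and 14.2 CPM in Batf3 stimulated libraries, 12.1, 11.7 and 12.02 CPM in control stimulated libraries, 59.5, 60.5 and 58.9 CPM in Batf3 non-stimulated libraries and 53.3, 53.6 and 53.7 CPM in control non-stimulated libraries. The 4 groups kept apart, and stimulation lowered Ccne1 4.10-fold with the Batf3 vector and 4.48-fold with the control vector. Batf3 raised it in both cultures by a small amount, 0.28 ± 0.09 in stimulated cells (adjusted p = 0.0105) and 0.16 ± 0.05 in non-stimulated cells (adjusted p = 0.0113), and a difference between these effects was not called (interaction 0.13 ± 0.10, adjusted p = 0.434). The stimulated call was missed without a filter (adjusted p = 0.0513) and without Batf3 stimulated replicate 2 (0.0655), and the non-stimulated one by DESeq2 (0.0927) and without Batf3 non-stimulated replicate 2 (0.0508).

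Ccne2 stood at 11.9, 11.9 and 9.06 CPM in Batf3 stimulated libraries, 9.28, 10.5 and 10.2 CPM in control stimulated libraries, 17.9, 17.9 and 17.4 CPM in Batf3 non-stimulated libraries and 18.2, 15.2 and 16.3 CPM in control non-stimulated libraries. Here the vectors overlapped in each culture. The Batf3 changes of 0.13 ± 0.11 in stimulated cells and 0.10 ± 0.09 in non-stimulated cells were not called (adjusted p = 0.42 for each), while the fall with stimulation was, at -0.70 ± 0.10 with Batf3 and -0.73 ± 0.10 with the control vector. Per kilobase the E cyclins together came to 8.59 ± 0.605 CPM in Batf3 stimulated and 7.35 ± 0.130 CPM in control stimulated cells, and to 27.5 ± 0.372 CPM in Batf3 non-stimulated and 24.9 ± 0.373 CPM in control non-stimulated cells. Ccne2 shares 17.4% of its exon bases with Ints8 on the other strand. Ints8 averaged 59.7 CPM in Batf3 stimulated, 67.85 CPM in control stimulated, 49.9 CPM in Batf3 non-stimulated and 51.5 CPM in control non-stimulated cells. It rose with stimulation by 0.26 ± 0.05 with the Batf3 vector and 0.40 ± 0.05 with the control vector. Batf3 changed Ints8 by -0.19 ± 0.05 in stimulated cells (edgeR's quasi-likelihood test, adjusted p = 0.00463). In non-stimulated cells its change was not called (adjusted p = 0.547). The part of Ints8 in the Ccne2 values was not tested.

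Cdk4 (chromosome 10, 127063534 to 127067920, plus strand) and Cdk6 (chromosome 5, 3341485 to 3531008, plus strand) encode the kinases that D cyclins activate. Cdk4 stood at 195, 194 and 198 CPM in Batf3 stimulated libraries, 233, 218 and 229 CPM in control stimulated libraries, 122, 119 and 113 CPM in Batf3 non-stimulated libraries and 162, 163 and 158 CPM in control non-stimulated libraries. Cdk6 stood at 344, 354 and 349 CPM in Batf3 stimulated libraries, 284, 291 and 284 CPM in control stimulated libraries, 215, 215 and 208 CPM in Batf3 non-stimulated libraries and 184, 185 and 184 CPM in control non-stimulated libraries. Both were highest in stimulated cells, yet the vector moved them in opposite directions in each culture with no overlap of libraries. Batf3 lowered Cdk4, with log2 changes of -0.21 ± 0.03 in stimulated and -0.45 ± 0.04 in non-stimulated cells, and raised Cdk6 by 0.29 ± 0.03 and 0.21 ± 0.03 (adjusted p between 9.31e-17 and 6.68e-07 for these 4 changes). Stimulation raised Cdk4 by 0.73 ± 0.04 with the Batf3 vector and 0.49 ± 0.03 with the control vector, and Cdk6 by 0.71 ± 0.03 and 0.63 ± 0.03. Per kilobase, Cdk6 made up 29.3 ± 0.379% of the pair in Batf3 stimulated and 22.7 ± 0.849% in control stimulated cells, and 29.6 ± 0.462% in Batf3 non-stimulated and 21.03 ± 0.230% in control non-stimulated cells. With the basic annotation Cdk6 held 24.1% in Batf3 stimulated and 18.4% in control stimulated cells. Without stimulation it then held 24.3% with Batf3 and 17.0% with the control vector. The interaction for Cdk4 was 0.24 ± 0.05 (adjusted p = 0.000126), while that for Cdk6 was not called (0.08 ± 0.04, adjusted p = 0.185). Cdk4 shares 19.7% of its exon bases with Tspan31 on the other strand. Tspan31 changed with stimulation by -1.11 ± 0.09 with the Batf3 vector and -1.27 ± 0.09 with the control vector, where Cdk4 rose. Batf3 changed Tspan31 by -0.25 ± 0.07 in non-stimulated cells (edgeR's quasi-likelihood test, adjusted p = 0.00566). In stimulated cells the change was -0.09 ± 0.105 (adjusted p = 0.572). The part of Tspan31 in the Cdk4 values was not tested.

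The promoter of Cdk4 is shown for its repeated E-box letters, and that of Cdk6 beside it. Myc, which encodes a factor that binds E-boxes, averaged 1200 ± 24.0 CPM in Batf3 stimulated, 1267 ± 8.02 CPM in control stimulated, 295 ± 14.6 CPM in Batf3 non-stimulated and 411 ± 8.73 CPM in control non-stimulated cells (SD, n = 3). Its log2 change with Batf3 was -0.08 ± 0.03 in stimulated cells and -0.48 ± 0.03 in non-stimulated cells (adjusted p = 0.0148 and 1.84e-22). From 250 bases before to 50 after the RefSeq start, the letters CACGTG, an E-box that reads the same on both strands, occurred 4 times in Cdk4, 1 time in Cdk6 and 1 time in the inner promoter of Cdkn2c, after its start. Of 32851 RefSeq promoters of this length, 7.15% held the letters at all and 8 (0.0244%) held them at least 4 times. The threshold of 4 is the number found in Cdk4 itself, so that share describes Cdk4 and tests nothing. A match is a description of letters, not a bound site. Over the 4 groups Cdk4 had the order of Myc, while Cdk6 and Cdkn2c had other orders, and a part of Myc in any of these levels was not tested. The 250 bases before each start follow, 5′ to 3′ on the strand of the gene, with the E-box letters in capitals (RefSeq, GRCm38.p6, chr10:127063285-127063534 and chr5:3343643-3343892, both plus strand).
Cdk4: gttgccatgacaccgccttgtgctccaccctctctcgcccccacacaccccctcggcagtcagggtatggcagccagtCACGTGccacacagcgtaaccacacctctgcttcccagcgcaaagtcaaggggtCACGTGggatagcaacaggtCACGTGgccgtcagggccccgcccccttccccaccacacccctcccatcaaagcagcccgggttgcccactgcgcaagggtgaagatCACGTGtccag
Cdk6: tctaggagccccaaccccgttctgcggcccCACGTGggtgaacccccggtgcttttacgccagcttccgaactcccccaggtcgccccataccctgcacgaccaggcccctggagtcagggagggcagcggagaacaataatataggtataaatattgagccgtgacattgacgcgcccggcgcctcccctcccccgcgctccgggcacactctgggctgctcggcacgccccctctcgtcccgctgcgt

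Cdkn1a (chromosome 17, 29090976 to 29100727, plus strand) encodes p21, which p53 induces after DNA damage and which mitogens also raise early in G1. Of the 3 inhibitors it was the one that rose with stimulation. It stood at 301, 310 and 320.1 CPM in Batf3 stimulated libraries, 397, 410.3 and 418 CPM in control stimulated libraries, 153, 146 and 146 CPM in Batf3 non-stimulated libraries and 129.6, 134 and 121 CPM in control non-stimulated libraries. Stimulation raised it by 1.07 ± 0.03 with the Batf3 vector and by 1.67 ± 0.03 with the control vector. Batf3 lowered it in stimulated cells (-0.40 ± 0.03, adjusted p = 1.98e-16) and raised it in non-stimulated cells (0.21 ± 0.04, adjusted p = 1.72e-06), in each culture the opposite direction to Ccnd1. The interaction was -0.60 ± 0.05 (adjusted p = 3.85e-16), the one negative interaction called among the 10 genes.

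Cdkn1b (chromosome 6, 134920401 to 134925513, plus strand) encodes p27, an inhibitor that holds resting T cells out of cycle. It stood at 6.02, 5.71 and 5.01 CPM in Batf3 stimulated libraries, 3.42, 4.34 and 4.34 CPM in control stimulated libraries, 80.7, 83.4 and 82.6 CPM in Batf3 non-stimulated libraries and 56.9, 58.7 and 61.9 CPM in control non-stimulated libraries. The groups did not overlap, and the Batf3 libraries were the higher ones in each culture. Stimulation lowered it 14.7-fold with the Batf3 vector and 14.6-fold with the control vector. Batf3 raised it by 0.47 ± 0.15 in stimulated cells (adjusted p = 0.00963) and by 0.48 ± 0.05 in non-stimulated cells (adjusted p = 3.51e-12), with an interaction of -0.01 ± 0.15 (adjusted p = 0.986). The stimulated call rests on 226 reads over the 3 Batf3 and 159 over the 3 control libraries. It was lost without Batf3 stimulated replicate 1 (0.40, adjusted p = 0.0573) and when control stimulated replicate 1 was left out (0.36, adjusted p = 0.0995).

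Cdkn2c (chromosome 4, 109660876 to 109667189, minus strand) encodes p18, an INK4 inhibitor known to restrain the proliferation of mouse T cells. It stood at 3.57, 3.56 and 4.27 CPM in Batf3 stimulated libraries, 2.13, 2.28 and 2.59 CPM in control stimulated libraries, 52.9, 51.1 and 53.1 CPM in Batf3 non-stimulated libraries and 39.8, 37.1 and 36.6 CPM in control non-stimulated libraries. These values followed the order of Cdkn1b, with the Batf3 libraries above the control libraries in each culture. Stimulation lowered it 13.8-fold with the Batf3 vector and 16.2-fold with the control vector, and Batf3 raised it by 0.70 ± 0.19 in stimulated cells (adjusted p = 0.00173) and 0.47 ± 0.06 in non-stimulated cells (adjusted p = 9.88e-10). An interaction was not called (0.23 ± 0.20, adjusted p = 0.447).

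Per kilobase, the 3 inhibitors together came to 90.0 ± 2.72 CPM in Batf3 stimulated and 117 ± 3.09 CPM in control stimulated cells, and to 79.3 ± 1.00 CPM in Batf3 non-stimulated and 63.2 ± 1.64 CPM in control non-stimulated cells. Cdkn1a was 97.1 ± 0.0871% of this in Batf3 stimulated and 98.5 ± 0.125% in control stimulated cells, and 52.6 ± 0.748% in Batf3 non-stimulated and 57.1 ± 1.47% in control non-stimulated cells. With the basic annotation Cdkn1a held 97.7% in Batf3 stimulated and 98.85% in control stimulated cells. Without stimulation it then held 59.2% with Batf3 and 63.5% with the control vector. For the class sum the vectors were in opposite orders in the 2 cultures, as for Cdkn1a.

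Promoters of 2 genes that fell over 10-fold with stimulation are shown for matches to letters searched in all promoters on both strands, an E2F match in Cdkn2c and a FOXO match in Ccnd3. The E2F letters searched were TTCGCGC (in 1.59% of the 32851 promoters), then the variant TTGGCGC (in 2.45%) and finally the variant TTCCCGC (in 4.6%). Any of them was found in 8.07%, and the FOXO letters GTAAACA in 3.65%. The RefSeq table held 10 promoters of 7 of the genes (Cdk4, Cdk6, Ccne1, Ccnd3, Cdkn1a, Cdkn1b and Cdkn2c). The outer promoter of Cdkn2c held TTCCCGC, and the outer promoter of Ccnd3 held GTAAACA on the opposite strand. None of the letters searched occurred in the promoter of Cdkn1b, which also fell over 10-fold with stimulation. The promoter of Ccne1, which fell less, and those of Cdkn1a, which rose, held none either. The AP-1 letters TGANTCA, present in 7.81% of all promoters, were in none of the 10, which says only that these letters are not in these windows. Ccnd1, Ccnd2 and Ccne2 were not analysed for motifs. The 250 bases before the start follow, 5′ to 3′ on the strand of the gene, with the matching letters in capitals (RefSeq, GRCm38.p6, chr4:109666757-109667006, minus strand, and chr17:47504801-47505050, plus strand).
Cdkn2c: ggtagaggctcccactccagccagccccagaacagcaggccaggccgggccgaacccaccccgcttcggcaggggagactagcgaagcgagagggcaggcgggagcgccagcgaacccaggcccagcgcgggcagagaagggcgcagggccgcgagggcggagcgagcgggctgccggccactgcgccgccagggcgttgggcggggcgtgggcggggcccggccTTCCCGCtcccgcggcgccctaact
Ccnd3: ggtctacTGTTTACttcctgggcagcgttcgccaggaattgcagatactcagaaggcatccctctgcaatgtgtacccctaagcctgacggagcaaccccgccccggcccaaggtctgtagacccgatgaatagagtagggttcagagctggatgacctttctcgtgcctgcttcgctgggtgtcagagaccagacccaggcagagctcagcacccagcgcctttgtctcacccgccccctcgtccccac

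Counted over the 10 genes, Batf3 raised 6 and lowered 2 in stimulated cells, where 14.8% of all genes rose and 14.6% fell, and raised 5 and lowered 4 in non-stimulated cells, where 16.3% rose and 23% fell. The libraries of the vectors did not overlap for 9 of the 10 genes in each culture, beside 39.8% of all genes in stimulated and 47.8% in non-stimulated cells. A call in either direction was made for 8 of the 10 genes in stimulated cells, beside 29.5% of all genes, and for 9 in non-stimulated cells, beside 39.3%. The median log2 change of the 10 genes was 0.25 in stimulated cells and 0.13 in non-stimulated cells, beside 0.00 and -0.02 over all genes tested. An interaction was called for 5 of the 10 genes and 20.7% of all genes. It was higher for 4 (Ccnd1, Ccnd2, Ccnd3 and Cdk4) and lower for 1 (Cdkn1a), beside 14.6% and 6.08% of all genes. With library sizes alone in place of TMM factors, 65.5% of the genes called in stimulated cells rose with Batf3, against 50.3% with TMM, and 59.9% against 41.4% in non-stimulated cells. That scaling also shifted the median of all genes by -0.22 and -0.19 in the comparisons of stimulated with non-stimulated cells (Batf3 and control vector), and the directions of the 10 genes stayed as they were there.

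**Figure D4:**
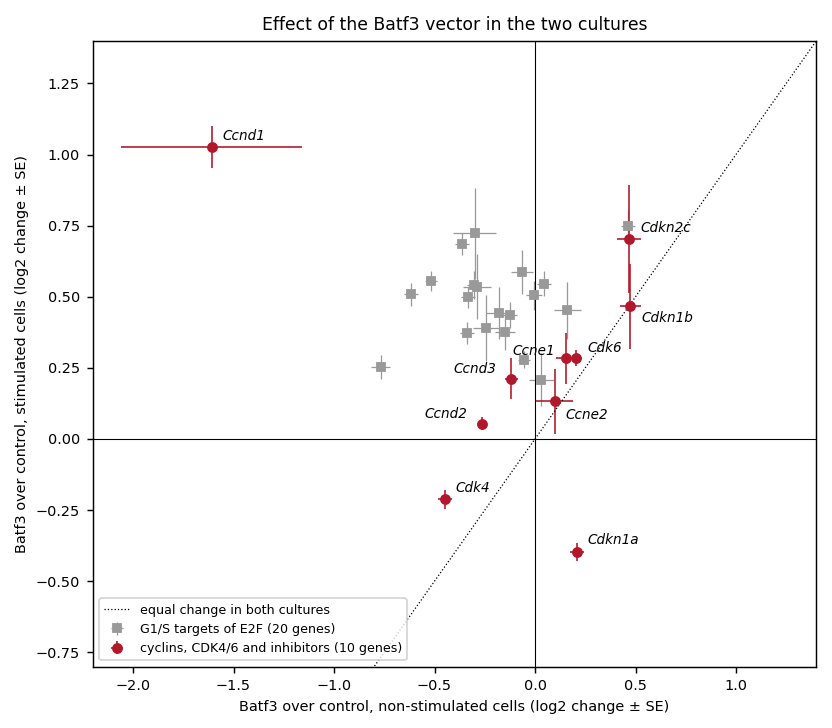
Log2 change ± SE for Batf3 over control vector in stimulated cells (vertical) against that in non-stimulated cells (horizontal) for the 10 genes and 20 E2F targets; the dotted line marks equal change. Of the 10 genes Ccnd1 lies farthest from the line and Cdkn1a alone is above 0 without and below 0 with stimulation, and all 20 E2F targets lie above the line.

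Further genes of the pathway were read from lists along the route from D cyclin to replication. Over all genes tested, stimulation raised 41.2% and lowered 41.4% with the Batf3 vector, and raised 39.6% and lowered 40.7% with the control vector. Batf3 raised 14.8% and lowered 14.6% in stimulated cells, and raised 16.3% and lowered 23% in non-stimulated cells. The interaction was called higher for 14.6% and lower for 6.08%. The list counts stand beside these shares. Among 13 pocket protein and E2F-DP genes, 4 rose and 8 fell with stimulation under either vector (median log2 change -2.07 with Batf3 and -1.75 with control, beside 0.01 and -0.01 over all genes). E2f2, an activator E2F, changed by -4.34 ± 0.08 with the Batf3 vector and -4.38 ± 0.11 with the control vector. Rbl2, the pocket protein p130 of resting cells, changed by -2.91 ± 0.09 with the control vector, while E2f5, a repressor E2F, rose by 1.70 ± 0.11 and 1.78 ± 0.11 with the Batf3 and control vectors. Batf3 raised 7 and lowered 1 of these genes in stimulated cells (median 0.28), with Rbl2 at 1.01 ± 0.10, and raised 6 and lowered 4 in non-stimulated cells (median -0.01). There E2f7, an atypical repressor, changed by 0.80 ± 0.09 and E2f1, an activator, by -0.52 ± 0.08. The interaction for E2f1 was 0.98 ± 0.13 (adjusted p = 5.85e-09).

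In 20 further G1/S targets of E2F, genes for loading and building DNA, the Batf3 change also differed between cultures. Batf3 raised 19 and lowered 0 of them in stimulated cells (median 0.50), but raised 1 and lowered 13 in non-stimulated cells (median -0.21). The interaction was called higher for 18 and lower for 0 (median 0.64, beside 0.05 over all genes). Mcm2, a subunit of the replicative helicase, changed by 0.51 ± 0.04 in stimulated and -0.62 ± 0.03 in non-stimulated cells, with an interaction of 1.13 ± 0.05 (adjusted p = 8.66e-26). Rrm2, of ribonucleotide reductase, rose in both cultures, by 0.75 ± 0.06 in stimulated and 0.46 ± 0.03 in non-stimulated cells. Stimulation raised 1 and lowered 18 of the 20 with the Batf3 vector (median -0.97), and raised 1 and lowered 19 with the control vector (median -1.61). The one that rose was Cdca7, a MYC-responsive nuclear protein, at 1.42 ± 0.05 and 0.40 ± 0.04.

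Other CDK inhibitors also moved in both directions. Stimulation raised 1 and lowered 2 of 4 with the Batf3 vector (median -1.44) and raised 2 and lowered 2 with the control vector (median -1.05). Cdkn2d, which encodes the INK4 protein p19, changed by -3.25 ± 0.09 with the Batf3 vector and -3.45 ± 0.10 with the control vector, and the phosphatase gene Cdkn3 by -3.08 ± 0.19 and -2.93 ± 0.21. Cdkn2a, which encodes p16 and ARF, rose by 0.97 ± 0.09 and 0.98 ± 0.09, and Cdkn2b, which encodes p15, rose by 0.82 ± 0.13 with the control vector and was not called with the Batf3 vector (0.20 ± 0.13, adjusted p = 0.155). Batf3 raised 1 and lowered 1 of the 4 in stimulated cells and raised 2 in non-stimulated cells, with Cdkn2d at 0.43 ± 0.12 and 0.23 ± 0.05. Cdkn1c, at no more than 7 reads in a library, was too low to be tested.

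Of 12 further kinases, cyclins and activators, 5 rose and 6 fell with stimulation under either vector (median -0.15 with Batf3 and -0.17 with control). Cdc25b, a phosphatase that activates cyclin-bound kinases, changed by -4.05 ± 0.06 with the Batf3 vector and -4.04 ± 0.08 with the control vector. Ccna2, the cyclin of S phase, changed by -2.24 ± 0.05 and -2.53 ± 0.05, whereas Cdk7, of the CDK-activating kinase, rose by 1.09 ± 0.06 and 0.97 ± 0.06. Batf3 raised 6 and lowered 3 in stimulated cells (median 0.15), and raised 5 and lowered 5 in non-stimulated cells (median -0.02). Cdc25b rose with Batf3 by 0.65 ± 0.10 in stimulated and 0.66 ± 0.04 in non-stimulated cells, and Cdc25a, which acts on cyclin E with CDK2, changed by -0.50 ± 0.06 in non-stimulated cells. All 7 genes of the DREAM and MuvB complexes with B-MYB and FOXM1 fell with stimulation under either vector (median -0.64 with Batf3 and -0.72 with control). Batf3 raised 4 of these in stimulated and 2 in non-stimulated cells and lowered none, with Foxm1, a driver of mitotic genes, at 0.42 ± 0.08 and 0.46 ± 0.04.

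Among 22 upstream transcription factors, 8 rose and 13 fell with stimulation under either vector (median -0.41 with Batf3 and -0.47 with control). Stat5a, which cytokines of the IL-2 family activate, rose by 4.01 ± 0.03 with the Batf3 vector and 3.84 ± 0.03 with the control vector, and Myc by 2.02 ± 0.03 and 1.63 ± 0.03. Klf2, a quiescence factor of T cells, changed by -3.97 ± 0.08 and -3.65 ± 0.09. Batf3 raised Klf2 by 0.38 ± 0.11 in stimulated and 0.70 ± 0.04 in non-stimulated cells. Over this list it raised 9 and lowered 5 genes in stimulated cells (median 0.10) and raised 7 and lowered 6 in non-stimulated cells (median 0.03).

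For each of the 10 genes, the genes with the closest pattern were found as those with the smallest root mean square difference of centred log2(CPM + 0.5) over the 12 libraries, among 8086 genes of at least 10 CPM. Nearest to Ccnd1 were Egr2 (0.25), Stra6 (0.27) and Bcl2a1d (0.34), the widest distances of the group. Ccnd2 lay closest to Eif4g1 (0.04), Lrrc59 (0.04) and Strap (0.05), and Ccnd3 to Gramd3 (0.08), Itm2b (0.09) and Apol7b (0.10). The E cyclin Ccne1 lay closest to Myh9 (0.06), Gimap3 (0.06) and Spata13 (0.06), and Ccne2 to Ocel1 (0.09), Hltf (0.09) and Fam117b (0.10). Nearest to Cdk4 were Aldoa (0.04), Syngr2 (0.07) and Psma7 (0.07), and nearest to Cdk6 were Pvr (0.05), Tmem131 (0.05) and Rabgap1l (0.07). For Cdkn1a they were Pde4dip (0.08), Gramd1b (0.09) and Aars (0.10). Cdkn1b had Ssh2 (0.08), Nusap1 (0.11) and Klhl6 (0.13) and Cdkn2c had Cerk (0.09), Ssh2 (0.12) and Nusap1 (0.13), so that Ssh2 and Nusap1 were near both. These are distances between profiles of technical libraries in 4 groups and carry no test.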

How the data were processed

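RNA was measured in 12 libraries, 3 for each of 4 groups. The authors deposited whole-number read counts per Ensembl gene, made with STAR 2.7 and featureCounts on GRCm38 per the submitters' processing notes. No source used here states the annotation release, the strand option or how reads with several alignments were counted. Of 55335 gene identifiers, 55154 matched GENCODE M21, used for coordinates and merged exon lengths.

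Counts were fitted in R 4.3.3 with edgeR 4.0.16 (TMM factors, filterByExpr, 4 group means, 8 residual degrees of freedom, robust quasi-likelihood, two-sided). Adjusted p-values are Benjamini-Hochberg values over the 15702 genes of a comparison from this fit unless another tool is named, with 0.05 as the threshold for "called", "rose" and "fell". The interaction subtracts the Batf3 change without stimulation from that with it. SE values never fall below counting error. A floor of 3 reads equals 0.191 to 0.228 CPM, and covers counting error only, since PCR reads without molecular identifiers are not independent molecules. The edgeR fit was tested on simulated counts. Alternatives were DESeq2 1.42.0, other scalings, no filter, fits on the compared groups alone, a replicate block and the omission of each library.

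The 10 genes, the 8 gene lists and the rules were chosen with earlier results of these data known. From each list and comparison, up to 2 called genes per direction with the largest change and at least 1 CPM could be named, and a gene so named may be given in other comparisons too. Marker genes and overlapping genes are named for the reason beside them. Lengths from the basic annotation were added after the values were seen.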

Additional observations from a re-analysis of the deposited data

Results flagged for a closer look

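In 5 of the 10 genes the change with the Batf3 vector differed between the cultures by the interaction test of edgeR. The share over all genes tested was 20.7%. Values are the log2 change in stimulated cells minus that in non-stimulated cells. The difference was 2.64 for Ccnd1, where the change was positive with stimulation and negative without it. It was 0.32 for Ccnd2. It was 0.33 for Ccnd3, where the small change was positive with stimulation and negative without it. It was 0.24 for Cdk4, which Batf3 lowered in both cultures. It was -0.60 for Cdkn1a, where the change was negative with stimulation and positive without it. Groups of 3 libraries were not tested for libraries far from the others.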

How the results depend on the processing

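Over 890 combinations of gene, comparison and alternative setting, 868 kept direction and side of the threshold, 11 calls were lost, 2 were gained and 9 values changed sign. The sign changes concern 2 interactions near 0 that were not called. For Ccne2 the interaction was -0.008 without a filter and between -0.065 and 0.157 when single libraries were left out, and for Cdkn1b it was between -0.147 and 0.065. With library sizes alone, 2404 genes in place of 3617 were called lower with Batf3 in non-stimulated cells, and without a filter 1524 in place of 2296 were called higher for the interaction; the cause was not tested. The lost and gained calls among the 10 genes are given with each gene above. Same-numbered libraries of different groups did not visibly deviate together (correlations between -0.15 and 0.08, beside -0.20 and 0.15 for libraries of different numbers). This cannot show that the numbers carry no pairing, since a shared step need not leave a visible deviation. With the replicate block, the counts of called genes among the 10 were as without it, and over all genes 2272 rose and 2238 fell with Batf3 in stimulated cells. Depth limits Ccnd1 without stimulation, where a library held 3 to 17 reads, and Cdkn2c with stimulation, where it held 28 to 58.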

Other observations

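With stimulation, and with Batf3 in stimulated cells, the p53 targets beside Cdkn1a did not share one direction. Of 19 tested, 6 rose and 10 fell with stimulation under the Batf3 vector and 6 rose and 11 fell under the control vector (median log2 changes -0.25 and -0.24). Over all genes tested, 41.2% rose and 41.4% fell with the Batf3 vector, and 39.6% rose and 40.7% fell with the control vector. Plk2, a polo-like kinase gene, rose by 5.18 ± 0.07 with the Batf3 vector and 6.09 ± 0.09 with the control vector, and Sesn2, a stress-induced sestrin, by 2.07 ± 0.06 and 2.46 ± 0.06. Ddb2, a DNA damage sensor, changed by -2.79 ± 0.14 and -2.62 ± 0.15. Batf3 raised 7 and lowered 5 of the 19 in stimulated cells (median 0.11), with Zmat3 at 0.58 ± 0.05 and Sesn2 at -0.35 ± 0.05, and raised 9 and lowered 0 in non-stimulated cells (median 0.12). Of all genes tested, it raised 14.8% and lowered 14.6% in stimulated cells, and raised 16.3% and lowered 23% in non-stimulated cells. The interaction was called higher for 1 and lower for 4 of the 19, and was not called for 14 (median -0.07). Over all genes it was called higher for 14.6% and lower for 6.08%. For Plk2 it was -0.91 ± 0.11 (adjusted p = 3.41e-11 by edgeR), the sign of that of Cdkn1a.

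Of 16 genes for ubiquitin ligases and deubiquitinases that act on G1 regulators, 5 rose and 8 fell with stimulation under the Batf3 vector and 7 rose and 7 fell under the control vector (medians -0.11 and -0.09). Usp2, reported to stabilise cyclin D1 in human cells, rose by 3.15 ± 0.25 and 3.63 ± 0.28. Batf3 raised 1 and lowered 5 in stimulated cells (median -0.07) and raised 3 and lowered 3 in non-stimulated cells (median -0.04). Over all genes tested, Batf3 raised 14.8% and lowered 14.6% in stimulated cells, and raised 16.3% and lowered 23% in non-stimulated cells. The list counts in non-stimulated cells lay near these shares. Those with stimulation under the control vector lay near the 39.6% raised and 40.7% lowered over all genes. Fbxo4 and Fbxo31, both reported to act in cyclin D1 turnover, changed with Batf3 in stimulated cells by -0.64 ± 0.17 and -0.42 ± 0.10. Dtl, of the CRL4 ligase that degrades p21 during S phase, changed by 0.43 ± 0.08 in stimulated and -0.37 ± 0.06 in non-stimulated cells, with an interaction of 0.80 ± 0.10 (adjusted p = 6.62e-10 by edgeR).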
